A study of Mus musculus with 168 samples.

Results

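The microRNAs described here are those of the Mir379 to Mir410 cluster, a run of hairpins in the imprinted Dlk1-Dio3 domain of mouse chromosome 12. They were taken as the transcripts annotated as miRNA by GENCODE M21 (GRCm38, also called mm10) that lie on the plus strand in a window around Mir379 and Mir410, with a mean of at least 5 estimated counts over all libraries. The table held 33 such transcripts, of which 30 passed the count rule, among 1626 transcripts in all. The remaining 3, Mir882, Mir654 and Mir453, had means of 0.018, 0.012 and 0.012 estimated counts. All 30 members also passed the low-count filter of the tests, which kept 470 transcripts. Mir376a, Mir376b, Mir299a, Mir380, Mir409 and Mir668, which RefSeq places in the same stretch, were not analysed here, so sums and shares of the cluster are over the 30 members.

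Short RNA had been sequenced from the hippocampus of C57BL/6 mice that were wild type (WT) or carried 1 knock-in Huntingtin allele, with a human HTT exon 1 whose CAG repeat gives each line its name (Q175, Q140, Q111, Q92, Q80 or Q20), at 2, 6 and 10 months of age (2m, 6m, 10m). There were 21 groups of 8 libraries. The sexes were balanced at 4 each, other than 3 female and 5 male mice for Q80 at 2m, and 5 female and 3 male mice for Q20 at 10m. Library totals ran from 2117539 to 9099227 estimated counts. Q20 and WT served as controls. Every mutant animal was heterozygous, the knock-in came from the sire with a C57BL/6J dam, WT mice were littermates of the Q20 line, and Q175 arose by spontaneous expansion in the Q140 line, so that the alleles are lines and not only repeat lengths. At 6m, all WT and Q175 libraries and no others carry names of 1 number block (block A, 16 libraries), and the rest those of another (block B, 40 libraries), so Q175 at 6m was in effect compared with WT alone. Batch at 2m and 10m was taken from an L code in the library names, whose meaning the sources do not give. No code occurred at both 2m and 10m, 1 library of 6m carried a code of 2m (L3), and code L6 was carried by the 16 libraries of block A and by 16 libraries of 10m. Differences of 6m or 10m from 2m cannot be told apart from batch.

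The Dlk1-Dio3 domain is expressed according to the parent of origin. Its protein-coding genes are read from the paternal chromosome, and its long non-coding RNAs and microRNAs from the maternal one. The Mir379 to Mir410 microRNAs are processed from a long maternal transcript, and they are known in the brain for induction by neuronal activity and for control of dendrites, spines and synaptic strength. In processing, each hairpin gives a 5p and a 3p arm, and bases 2 to 8 of the arm, the seed, carry most of the target recognition.

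All 30 members matched RefSeq (GRCm38.p6), which gives them 56 mature sequences of 19 to 25 nucleotides with 52 different seeds. The mature forms of the 5 members with a call for repeat length or Q175 are shown first, with the seed in capitals, because the CAG results below turn on them.
mmu-miR-667-5p: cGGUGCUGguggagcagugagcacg
mmu-miR-667-3p: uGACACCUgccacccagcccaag
mmu-miR-323-5p: aGGUGGUCcguggcgcguucgc
mmu-miR-323-3p: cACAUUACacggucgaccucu
mmu-miR-496a-5p: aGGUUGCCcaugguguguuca
mmu-miR-496a-3p: uGAGUAUUacauggccaaucuc
mmu-miR-410-5p: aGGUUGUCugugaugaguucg
mmu-miR-410-3p: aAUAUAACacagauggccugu
mmu-miR-3072-5p: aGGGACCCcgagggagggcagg
mmu-miR-3072-3p: uGCCCCCUccaggaagccuucu

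Among these 10 sequences, the seed of miR-410-5p occurred in 1 further member, miR-494-5p. Over the 56 mature sequences 4 seeds were each shared by 2 mature forms. For Mir376c, Mir485, Mir487b and Mir539 the sequences used held only 1 arm, so sharing by the other arm was not counted. The remaining sharing pairs are given here because each puts an abundant or intermediate member beside a rare one or beside its neighbour.
mmu-miR-494-5p: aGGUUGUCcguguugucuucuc
mmu-miR-379-5p: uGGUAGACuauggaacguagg
mmu-miR-1193-5p: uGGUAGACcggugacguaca
mmu-miR-379-3p: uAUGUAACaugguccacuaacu
mmu-miR-411-3p: uAUGUAACacgguccacuaacc
mmu-miR-758-5p: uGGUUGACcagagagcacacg
mmu-miR-1197-5p: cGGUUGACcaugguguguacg

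Mir300 and Mir381 are shown as well because their 3p arms hold the longest run of identical bases between any pair of the 56 mature sequences, 16 nucleotides, although their seeds differ.
mmu-miR-300-3p: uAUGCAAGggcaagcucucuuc
mmu-miR-381-3p: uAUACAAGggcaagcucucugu
In the deposited table no value of either gene was a whole number (0% of values within 0.001 of one), while at least 99.4% of values were whole for each of the other 28 members. The levels of Mir300 and Mir381 are therefore less certain than the rest, and whether reads had been shared between them was not tested. Counts were given per hairpin, so the arms of a member cannot be separated.

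The first member in gene order is Mir379 (chromosome 12, 109709060 to 109709125) and the last is Mir3072 (109747878 to 109747960), a span of 38901 bases. From Mir382 onwards the members lie in exons or introns of the long non-coding RNA gene Mirg, and earlier members have no annotated host on the same strand. Mir539 overlaps an annotated antisense microRNA gene, Gm44322.

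The question addressed first was how strongly each member was expressed. Levels are given as CPM (estimated counts scaled to a common library size with TMM factors) and, where genes are compared, as CPM per kb of hairpin. The median CPM per kb over all libraries differed 3783-fold between the most and the least abundant member, Mir411 and Mir1197. In plain CPM their medians were 8698 and 3.36. Mature forms have 19 to 25 nucleotides whatever the hairpin's length, so division by that length can change the order of members. Mir485, for example, ranked above Mir667 per kb, with medians of 333 and 381 CPM. Mir411, which lies next to Mir379, led with a median of 106073 CPM per kb (lowest library 6634 CPM, median 8698, highest 12708). Mir410 followed with 74356 CPM per kb, Mir541 with 64350, Mir381 with 51608 and Mir300 with 46974. Mir381 takes part in activity-dependent dendrite growth.

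These 5 genes held 82.4% of all estimated counts of the cluster, and Mir411 alone held 25.3%. At the low end, Mir1197 had a median of 28.0 CPM per kb (1.19 to 9.04 CPM over the libraries), Mir494 of 43.3 and Mir1193 of 46.0. Abundance did not run along the cluster, since Mir1197 lies 3.26 kb from the start of Mir379 and Mir411 1.11 kb from it. Ordered by CPM per kb, 27 of the 29 neighbouring pairs had ranges over libraries that overlapped. The exceptions were the steps from Mir300 to Mir369 and from Mir496a to Mir412. Of 20 microRNAs listed for a described role in neurons, 18 were members, and their medians ran from 43.3 CPM per kb (Mir494) to the 106073 CPM per kb of Mir411.

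**Figure D1:**
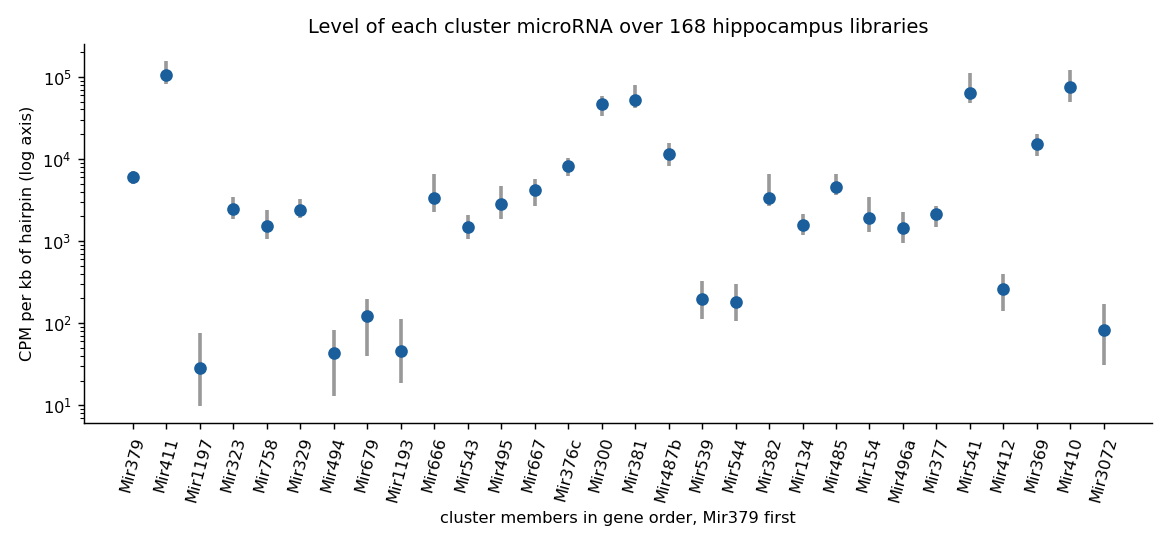
Level of each of the 30 members in gene order, as CPM per kb of hairpin on a log axis. Points are medians over all libraries and bars run from the lowest to the highest library. Mir411, Mir410, Mir541, Mir381 and Mir300 stand above the rest, and Mir1197, Mir494 and Mir1193 lie lowest.

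Members listed for neurons and not yet named lay between these ends of the order. Mir369, which together with Mir496a and Mir543 is known to restrain N-cadherin in developing cortical neurons, had a median of 15401 CPM per kb, and Mir543 of 1474 CPM per kb. Mir134, which limits dendritic spine size through Limk1, had a median of 1577 CPM per kb. Mir485, a regulator of the synaptic vesicle protein SV2A, reached 4560 CPM per kb, and Mir329, which acts with Mir134 and Mir381 in dendrite growth, 2405 CPM per kb. Mir495, whose described targets include Bdnf, had 2823 CPM per kb. Medians were 11534 CPM per kb for Mir487b, 5972 for Mir379, 4142 for Mir667, 3348 for Mir382, 2156 for Mir377, 1910 for Mir154 and 196 for Mir539.

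Summed over its 30 members, the cluster made up a steady part of hippocampal microRNA. Its sum ran from 26480 to 47043 CPM over all libraries, with a median of 34012 CPM, and its share of the plain total from 2.68% to 4.52%, with a median of 3.41%. At 10m the sum ran from 31406 to 37545 CPM in Q175 libraries (median 36138, n = 8) and from 29303 to 37504 CPM in control libraries (median 33882, n = 16), so the groups overlapped over nearly their whole range. Over all 3 ages, group medians of the sum lay between 32129 CPM (Q80 at 10m) and 36138 CPM (Q175 at 10m). No test was made of this sum. The 14 microRNAs just upstream in the same domain had, summed, a median of 157219 CPM in Q175 and of 146207 CPM in controls at 10m.

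**Figure D2:**
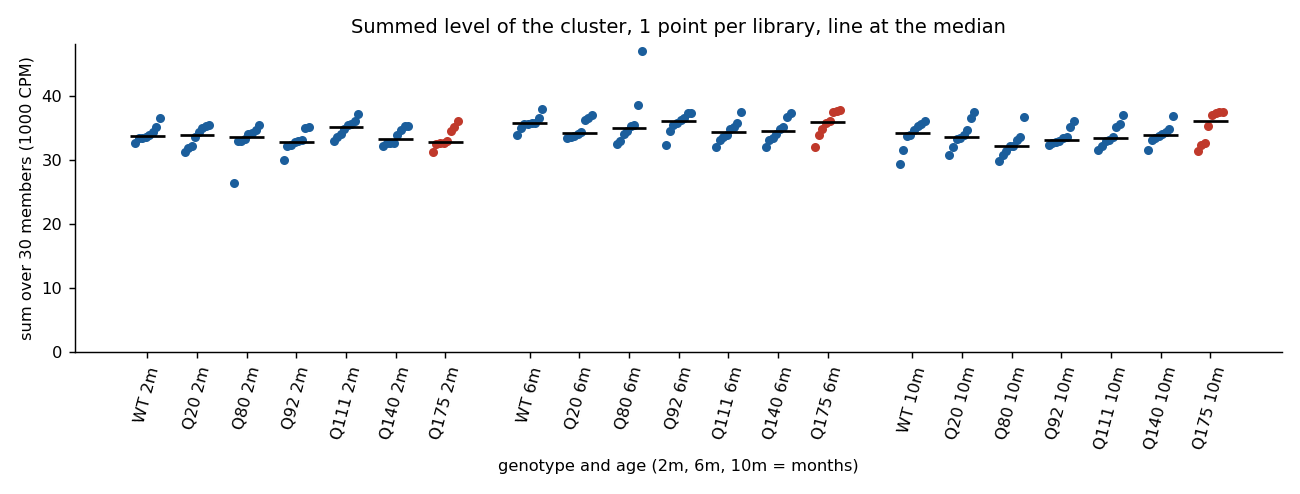
Sum over the 30 members in kilo-CPM for each library, by genotype within age, with a line at each group's median and Q175 in red. Group medians lie between 32129 and 36138 CPM, and the groups overlap at every age.

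Single members were also steady between groups. The highest of the 21 group medians was a median of 1.28 times the lowest, and it was under 1.5 times in 24 of 30 members. Mir487b varied least (1.13 times). Mir1193 (2.38 times), Mir3072 (2.14 times) and Mir666 (2.09 times) varied most and were the only members above 2 times. For 15 members the highest group was WT or Q175 at 6m, that is, a group of block A, and in 13 of these it was Q175. A further 4 members were highest in Q175 at 10m. The same counts were not made over all transcripts.

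The main question was whether expression followed CAG length. Slopes are log2 changes per 100 CAG repeats over the 56 libraries of an age, with sex and batch as covariates, and a call is a Benjamini-Hochberg adjusted p under 0.05 from edgeR over all 470 transcripts. At 2m no member was called (0 of 30, against 0.213% of all transcripts tested), and none reached an unadjusted p under 0.05, beside 18 of all 470 transcripts. At 6m none was called either (1.28% of all transcripts), with 4 members at an unadjusted p under 0.05, beside 67 of all 470 transcripts. By DESeq2 the count was also 0 at both ages. At 10m, 2 of 30 members rose with CAG length, Mir667 and Mir323, and none fell. Over all transcripts 11.1% were called at 10m in either direction and 5.74% as higher, so the members' share was near the background. The slope was above 0 in 25 of 30 members at 10m and in 49.6% of all transcripts, with a median of 0.030 beside -0.0015 over all transcripts. In females alone it was above 0 in 26 of 30 members (median 0.047), and in males alone in 14 of 30 (median -0.00021). At 6m the medians were 0.024 for the members and 0.021 for all transcripts, and at 2m 0.0025 and 0.00017.

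**Figure D3:**
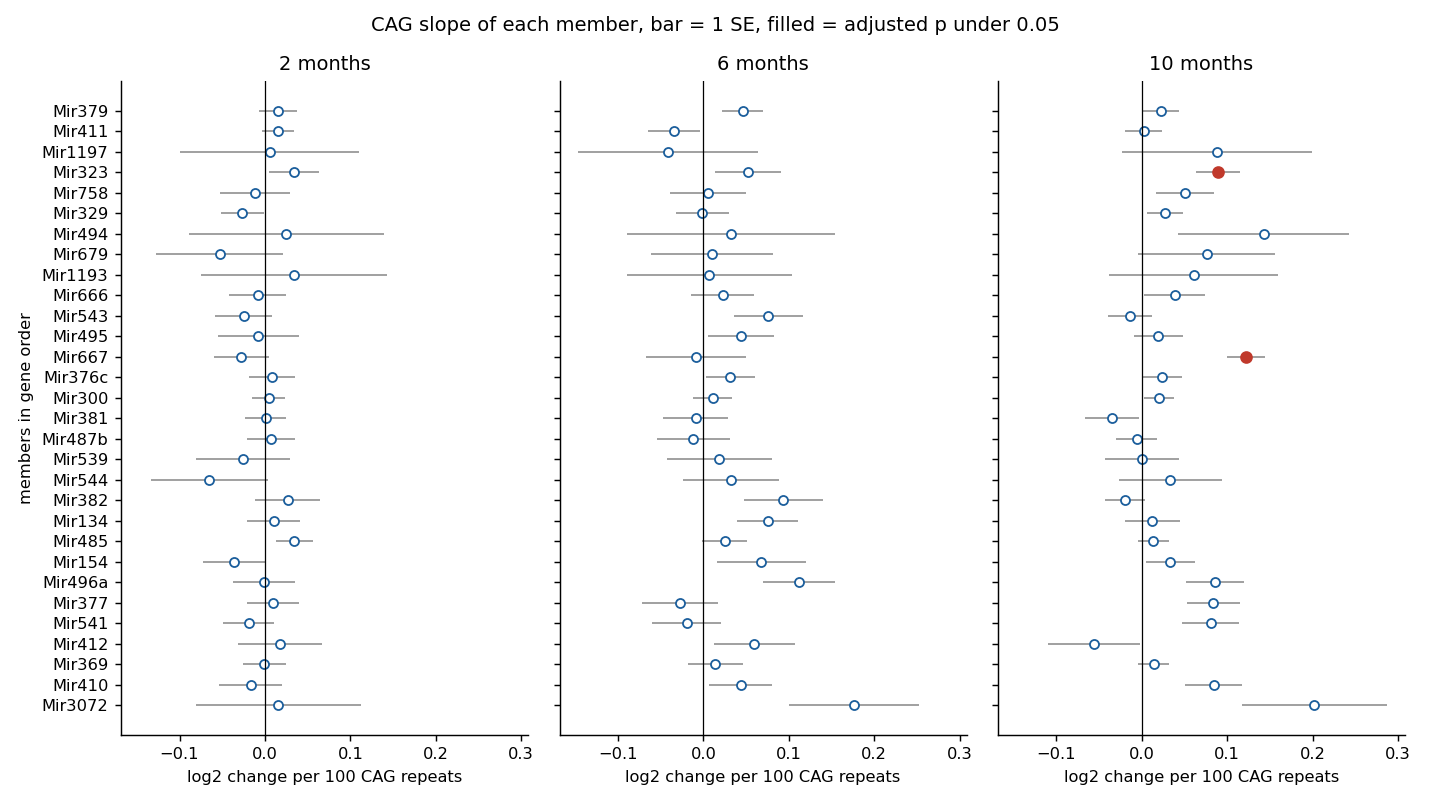
CAG slope of each of the 30 members in gene order at 2, 6 and 10 months, as log2 change per 100 CAG repeats, with bars of 1 standard error. Filled points mark the calls at an adjusted p under 0.05, which are Mir323 and Mir667 at 10 months, and open points the other members.

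Mir667 gave the clearest result. This microRNA lies 10.9 kb from the start of Mir379. At 10m its lowest, median and highest values were 328, 367 and 380 CPM in WT, 346, 364 and 373 CPM in Q20, 346, 369 and 408 CPM in Q80, and 350, 368 and 397 CPM in Q92. They were 330, 364 and 422 CPM in Q111, 353, 396 and 444 CPM in Q140, and 393, 433 and 462 CPM in Q175. Up to Q111 the medians differed by less than the spread within a group, Q140 lay higher with overlap, and all 8 Q175 libraries lay above all 16 control libraries. Such a complete separation was seen in 1.7% of all transcripts tested, and in 1 of 30 members.

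The slope of Mir667 at 10m was 0.12 (SE 0.022, adjusted p = 9.4e-05). Against controls, Q175 was higher by 0.24 on the log2 scale (SE 0.035, adjusted p = 3.4e-05), with means of 431 ± 27.6 CPM in Q175 (SD, n = 8) and 362 ± 14.5 CPM in controls (SD, n = 16). Q140 differed from controls by 0.13 (SE 0.040, unadjusted p = 0.0032), which did not pass the adjusted threshold (adjusted p = 0.43). Within each of the 3 batch codes at 10m the mean was higher in Q175, with log2 ratios of 0.21 (3 Q175 and 8 control libraries), 0.28 (3 Q175, 6 control) and 0.23 (2 of each). With any single library left out the slope stayed between 0.11 and 0.13 and its adjusted p at or below 0.00082. Without the Q175 libraries the slope was 0.07 and lost its call (adjusted p = 0.36), as did every transcript called at 10m, since 0% of all transcripts passed. It was called in females alone and lost its call in males alone (0.08, adjusted p = 0.23), and the difference between the sexes, male minus female, was -0.04 (SE 0.045, adjusted p = 0.88).

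At the earlier ages Mir667 did not follow CAG length. Its median was 366 CPM in Q175 and 389 CPM in controls at 2m (Q175 minus controls -0.07, SE 0.055), and 444 CPM in Q175 and 455 CPM in WT of the same block at 6m (-0.05, SE 0.10, in the fit with the batch term). The libraries of 6m were more widely spread, from 249 to 527 CPM over all genotypes, against 328 to 462 CPM at 10m. The slope at 10m minus that at 2m was 0.16 (SE 0.056, unadjusted p = 0.0058), which did not pass the adjusted threshold (adjusted p = 0.13). No member passed that test of a difference between ages (0 of 30, 2.34% of all transcripts, 3 members at an unadjusted p under 0.05), nor the test of 6m minus 2m (0 of 30, 0.213% of all transcripts, 2 members at an unadjusted p under 0.05). Over all 470 transcripts, 53 reached that unadjusted level for 10m minus 2m and 51 for 6m minus 2m.

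Mir323, near the start of the cluster, showed a smaller slope at 10m of 0.09 (SE 0.025, adjusted p = 0.0151). Its values ran from 199 to 247 CPM in Q175 (median 219) and from 175 to 229 CPM in controls (median 203), so the groups overlapped, with 2 of 8 Q175 libraries above every control. Q140 had a similar median of 220 CPM (200 to 255 CPM). The contrast of Q175 with controls was 0.14 (SE 0.052, adjusted p = 0.080). Leaving out Q175 10m F1 ended the slope's call (adjusted p = 0.055), as did leaving out all Q175 libraries (0.09, adjusted p = 0.31) or using females (0.12, adjusted p = 0.073) or males alone (0.04, adjusted p = 0.65).

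**Figure D4:**
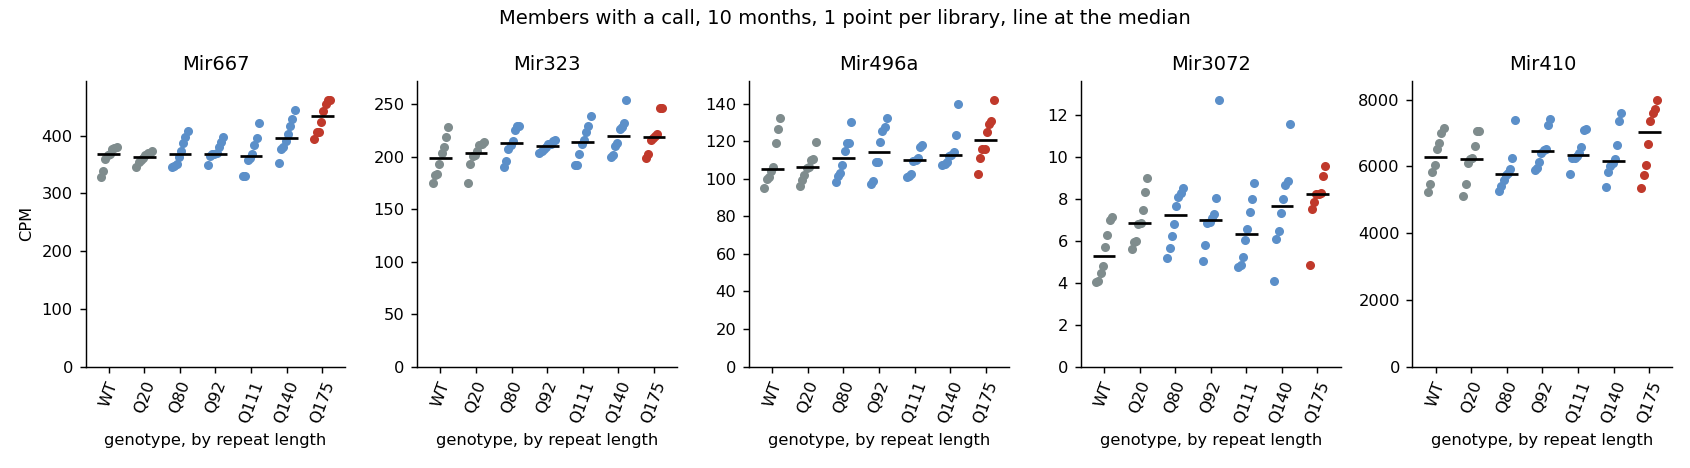
CPM of Mir667, Mir323, Mir496a, Mir3072 and Mir410 in each library at 10 months, by genotype in order of repeat length, with controls in grey, Q175 in red and a line at each median. The 8 Q175 values of Mir667 (393 to 462 CPM) lie above all 16 controls (328 to 380 CPM), while the groups overlap for the other 4 genes.

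When the statistics of 6m and 10m were combined, 4 of 30 members rose with CAG length and none fell, beside 14.9% of all transcripts called in either direction and 8.3% as higher. They were Mir496a (mean slope of the 2 ages 0.10, adjusted p = 0.0067), Mir667 (0.06, adjusted p = 0.0106), Mir323 (0.07, adjusted p = 0.0117) and Mir3072 (0.19, adjusted p = 0.0136). The call of Mir667 here came from 10m, since its slope at 6m was -0.01. Without Q175 all 4 combined calls were lost (adjusted p from 0.47 to 0.75), and without WT those of Mir323, Mir496a and Mir3072 were lost (adjusted p from 0.064 to 0.63). Without WT, however, block A at 6m held Q175 alone, so with the batch term the 6m slope did not draw on Q175. This alternative therefore cannot tell whether the calls depended on WT.

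The contrast of Q175 with controls gave a like picture, with some of the same libraries. No member was called at 2m (0 of 30, 0% of all transcripts, none at an unadjusted p under 0.05) or at 6m (0 of 30, 3.4% of all transcripts, 3 at an unadjusted p under 0.05), also by DESeq2. Over all 470 transcripts, 8 at 2m and 75 at 6m had an unadjusted p under 0.05. At 10m Mir667 was the only member called (1 of 30, with 11.9% of all transcripts called and 5.53% called higher). The difference was above 0 in 23 of 30 members and in 51.5% of all transcripts, with a median of 0.065 beside 0.0060 over all transcripts. With 6m and 10m combined, 4 members were higher in Q175 and none lower, beside 16.6% of all transcripts called and 7.87% called higher. These were Mir496a (mean log2 difference 0.19, adjusted p = 0.0051), Mir667 (0.10, adjusted p = 0.0123), Mir3072 (0.33, adjusted p = 0.0132) and Mir410 (0.13, adjusted p = 0.0431). With no low-count filter, which raises the number of transcripts tested, Mir496a alone kept its call.

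Mir496a, 1 of the microRNAs that act on N-cadherin, was higher in Q175 at both later ages. At 6m its lowest, median and highest values were 123, 133 and 176 CPM in Q175 and 104, 119 and 151 CPM in WT of the same block, with a log2 difference in the fit of 0.22 (SE 0.076, unadjusted p = 0.0086, adjusted p = 0.13). At 10m they were 102, 120 and 142 CPM in Q175 and 94.9, 106 and 132 CPM in controls, a difference of 0.16 (SE 0.065, adjusted p = 0.099). Neither age alone passed the adjusted threshold, and the ranges overlapped at both. Within the 10m batch codes the difference was 0.28, 0.12 and 0.0049.

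Mir3072, the rare last member in gene order, had values of 7.51 to 14.3 CPM in Q175 (median 10.4) and of 4.71 to 10.6 CPM in controls (median 7.42) at 6m. Those controls differed by block, with medians of 8.61 CPM in WT (block A) and 6.36 CPM in Q20 (block B), and over all genotypes the median of Mir3072 was 0.53 higher in block A than in block B on the log2 scale. Within block A, Q175 was 0.30 higher than WT, and the fit with the batch term gave 0.30 (SE 0.12, adjusted p = 0.20). At 10m the values were 4.83 to 9.59 CPM in Q175 (median 8.22) and 4.02 to 8.98 CPM in controls (median 6.14), a log2 difference of 0.35 (SE 0.15, adjusted p = 0.13). With a mean of 24.6 estimated counts per library its values carry large counting error. Among the controls of 10m, WT had a median of 5.25 CPM and Q20 of 6.84 CPM. Without WT the combined slope was 0.10 (adjusted p = 0.63), in a fit whose 6m slope did not draw on Q175.

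Mir410 is the second of the cluster in abundance per length. At 10m it ran from 5348 to 7995 CPM in Q175 (median 7016) and from 5099 to 7147 CPM in controls (median 6233), with 4 of 8 Q175 libraries above every control, and the lowest Q175 library near the lowest control. The difference was 0.15 (SE 0.066, adjusted p = 0.14) at 10m and 0.11 (SE 0.061, adjusted p = 0.42) at 6m. Within the 10m batch codes it was 0.31, 0.08 and -0.05. The combined call of Mir410 was lost when any of 16 of the 48 libraries was left out (Q175 6m F1, F3, M3 and M4, WT 6m F4, M1, M2 and M3, Q175 10m F1, F2, F4 and M3, Q20 10m F1 and F4, WT 10m F2 and M2), with adjusted p up to 0.091.

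Several cell type markers differed between the same libraries. The summed level of the neuron list (10 of 11 microRNAs in the table) ran from 76671 to 82710 CPM in Q175 and from 78008 to 89031 CPM in controls at 10m, with overlap. Of its 10 tested members, 9 had a log2 difference below 0 (median of the list -0.14). Those called lower were 4 (Mir128-1, Mir124a-1, Mir138-2 and Mir128-2), beside 30 called lower among all 470 transcripts. None of the lists for astrocyte-rich microRNAs, oligodendrocytes, microglia and leukocytes, red blood cells, vessels, choroid plexus and ependyma, or epithelium held a member called in Q175 at 10m. Several nonetheless lay lower in Q175. The log2 difference was below 0 in 5 of 5 epithelium microRNAs (median -0.45), 7 of 9 of the choroid plexus and ependyma list (median -0.26), 2 of 2 red blood cell microRNAs (median -0.21), 2 of 2 astrocyte-rich (median -0.15) and 3 of 3 vessel microRNAs (median -0.12), and above 0 in 3 of 3 oligodendrocyte microRNAs (median 0.02). Mir143 stands in both the astrocyte-rich and the vessel list, so these lists are not separate. Its mean over all libraries was 10300 CPM, beside 1935 CPM for Mir21a, the only other astrocyte-rich microRNA. For the slope at 10m, Mir449a of the choroid plexus and ependyma list was called higher, against the other 8 of that list, which were below 0 (median of the list -0.27). The epithelium list summed to 44.8 to 185 CPM in Q175 and 76.9 to 233 CPM in controls, and the red blood cell list (2 of 4 in the table) to 176 to 252 CPM in Q175 and 190 to 306 CPM in controls. The choroid plexus and ependyma list ran from 6561 to 32014 CPM in Q175 and from 7255 to 36284 CPM in controls. The microglia and leukocyte list (3 of 6 in the table) ran from 953 to 1071 CPM in Q175 and from 946 to 1215 CPM in controls, the astrocyte-rich list from 9841 to 19713 CPM in Q175 and from 10836 to 22642 CPM in controls, the vessel list from 16465 to 27179 CPM in Q175 and from 16883 to 31214 CPM in controls, and the oligodendrocyte list from 4115 to 5419 CPM in Q175 and from 3049 to 5360 CPM in controls. Some of these sums rested mainly on 1 microRNA. In the microglia and leukocyte list, means over all libraries were 1148 CPM for Mir150, 7.83 for Mir223 and 6.87 for Mir155. In the choroid plexus and ependyma list Mir204 had 8273 CPM, beside 1255 CPM for Mir34c, the next highest. The sums of every list overlapped between the groups. The part of these differences in the values of the cluster was not tested. In this bulk tissue, a change in the number of cells of a type and a change in RNA per cell cannot be told apart.

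The alleles of intermediate length were each compared with the same controls at each age. No member was called in Q80, Q92, Q111 or Q140 at 2m, 6m or 10m (0 of 30 in each of 12 comparisons). Over all transcripts 0% were called in 11 of these and 0.213% in Q111 at 6m. Members at an unadjusted p under 0.05 numbered from 0 to 3 in a comparison, the most in Q140 at 10m (Mir667, Mir377 and Mir323). There 42 of all 470 transcripts reached that level, so the members' share was near the background. DESeq2 called none either. Among the 22 members with a mean of at least 100 estimated counts, the differences of Q140 from controls at 10m ran from -0.07 to 0.18, with standard errors from 0.038 to 0.071. In the remaining 8 members standard errors ran from 0.10 to 0.21, so that only large changes could have been seen in them.

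At 10m the 5 members called in the fits above gave, side by side, these differences from controls in Q140, a comparison that shares its controls with that of Q175. Mir667 and Mir323 were each 0.13 higher, Mir3072 0.29 (SE 0.17), Mir496a 0.08 (SE 0.066) and Mir410 0.07 (SE 0.071). Mir667 differed by 0.03 in Q80, 0.04 in Q92 and 0.0018 in Q111, all within 2 standard errors of 0.

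The 14 upstream microRNAs of the domain, which belong to the same maternal region, were the likest group to set beside the cluster. Of these, 2 rose with CAG length at 10m, and their median slope was 0.051 (13 of 14 above 0), beside the cluster's median of 0.030. In the contrast of Q175 with controls at 10m, 1 of 14 was called and the median was 0.10, beside 0.065 for the cluster. The difference between the groups of microRNAs was not tested. With scaling factors from transcripts outside the domain, 5 members were called for the slope at 10m in place of 2, the additions being Mir496a, Mir377 and Mir541. Over all transcripts those factors gave 39 higher and 14 lower calls for the slope at 10m in place of 27 and 25, and 35 higher and 24 lower calls for Q175 at 10m in place of 26 and 30.

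The 3 ages were compared as the mean over the 7 genotypes in 1 fit of all 21 groups, with sex as covariate. Batch and age were confounded, and no batch term was used. The SE and p-values for age therefore leave out variation between batches and treat libraries as replicates of an age. At 10m against 2m, 16 of 30 members were called, 7 higher and 9 lower at 10m, beside 48.9% of all transcripts (23.6% higher, 25.3% lower). The median change was -0.015 in the members and -0.0059 over all transcripts. At 6m, 15 members were called against 2m, 9 higher and 6 lower, beside 66.6% of all transcripts (29.4% higher, 37.2% lower). The split at 6m moved with the scaling, to 6 higher and 10 lower with RLE factors and to 6 higher and 8 lower with factors from outside the domain. Over all transcripts the split moved too, from 138 higher and 175 lower to 109 and 205 with RLE factors. With factors from outside the domain it was 121 and 199. The shares of members called were thus near or below those of all transcripts.

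Mir1193 showed the largest age difference of the cluster. Its lowest, median and highest values were 2.24, 8.39 and 13.6 CPM at 2m, 2.65, 4.78 and 8.05 CPM at 6m, and 2.29, 4.70 and 8.67 CPM at 10m (56 libraries each). The later ages overlapped almost completely. Of the 56 libraries of 2m, 27 lay above every later library, and 1 lay below every later library. It fell by 0.73 (SE 0.087, adjusted p = 1.4e-13) at 6m and by 0.78 (SE 0.088, adjusted p = 3.1e-14) at 10m, relative to 2m, in the fit without a batch term. Medians by batch code were 10.2, 9.45 and 6.17 CPM at 2m, 5.33 and 4.61 CPM in blocks A and B at 6m, and 5.64, 4.39 and 4.10 CPM at 10m, so the codes of 2m also differed among themselves, though the lowest 2m code was above the highest later one.

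Other members that were lower at 10m than at 2m were Mir412 (-0.28, SE 0.039), Mir1197 (-0.23, SE 0.085), Mir485 (-0.15, SE 0.020) and Mir666 (-0.13, SE 0.030). Mir412 had a median of 18.3 CPM at 10m and of 22.6 CPM at 2m, and each of its 3 batch medians at 10m (18.0 to 19.7 CPM) was below each of those at 2m (21.9 to 23.3 CPM). Mir485 had medians of 359, 339 and 318 CPM at the 3 ages. The members highest at 10m relative to 2m were Mir3072 (0.20, SE 0.066), Mir410 (0.11, SE 0.030), Mir376c (0.11, SE 0.022), Mir154 (0.10, SE 0.034) and Mir758 (0.10, SE 0.032). These increases were small beside the spread over libraries, as in Mir376c, which ran from 596 to 863 CPM at 10m and from 554 to 878 CPM at 2m.

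At 6m the members highest relative to 2m were Mir3072 (0.29, SE 0.066), Mir666 (0.23, SE 0.029), Mir541 (0.19, SE 0.029), Mir154 (0.16, SE 0.034) and Mir667 (0.11, SE 0.030). Lowest beside Mir1193 were Mir1197 (-0.49, SE 0.085), Mir544 (-0.21, SE 0.052), Mir496a (-0.10, SE 0.029) and Mir412 (-0.10, SE 0.039). Mir666 was high in both genotypes of block A. Its values ran from 458 to 655 CPM in the 16 libraries of block A (median 564), from 245 to 419 CPM in the 40 of block B (median 348), and reached at most 448 CPM in the 152 libraries outside block A. Within block A, Mir666 had medians of 587 CPM in Q175 and 558 CPM in WT, while at 10m the medians were 333 CPM in Q175 and 308 CPM in WT. At 6m the block and these genotypes cannot be told apart. Mir666 was 1 of 30 members whose blocks did not overlap, beside 9.57% of all transcripts tested. Over the 5 genotypes outside block A, 9 members were called between 6m and 2m in place of 15, beside 48.5% of all transcripts in place of 66.6%. Of these 9, Mir1193, Mir1197, Mir544, Mir496a, Mir412 and Mir541 had been called over all genotypes. Mir666 (0.04), Mir3072 (0.13), Mir154 (0.06) and Mir667 (0.05) were among those that lost their call.

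**Figure D5:**
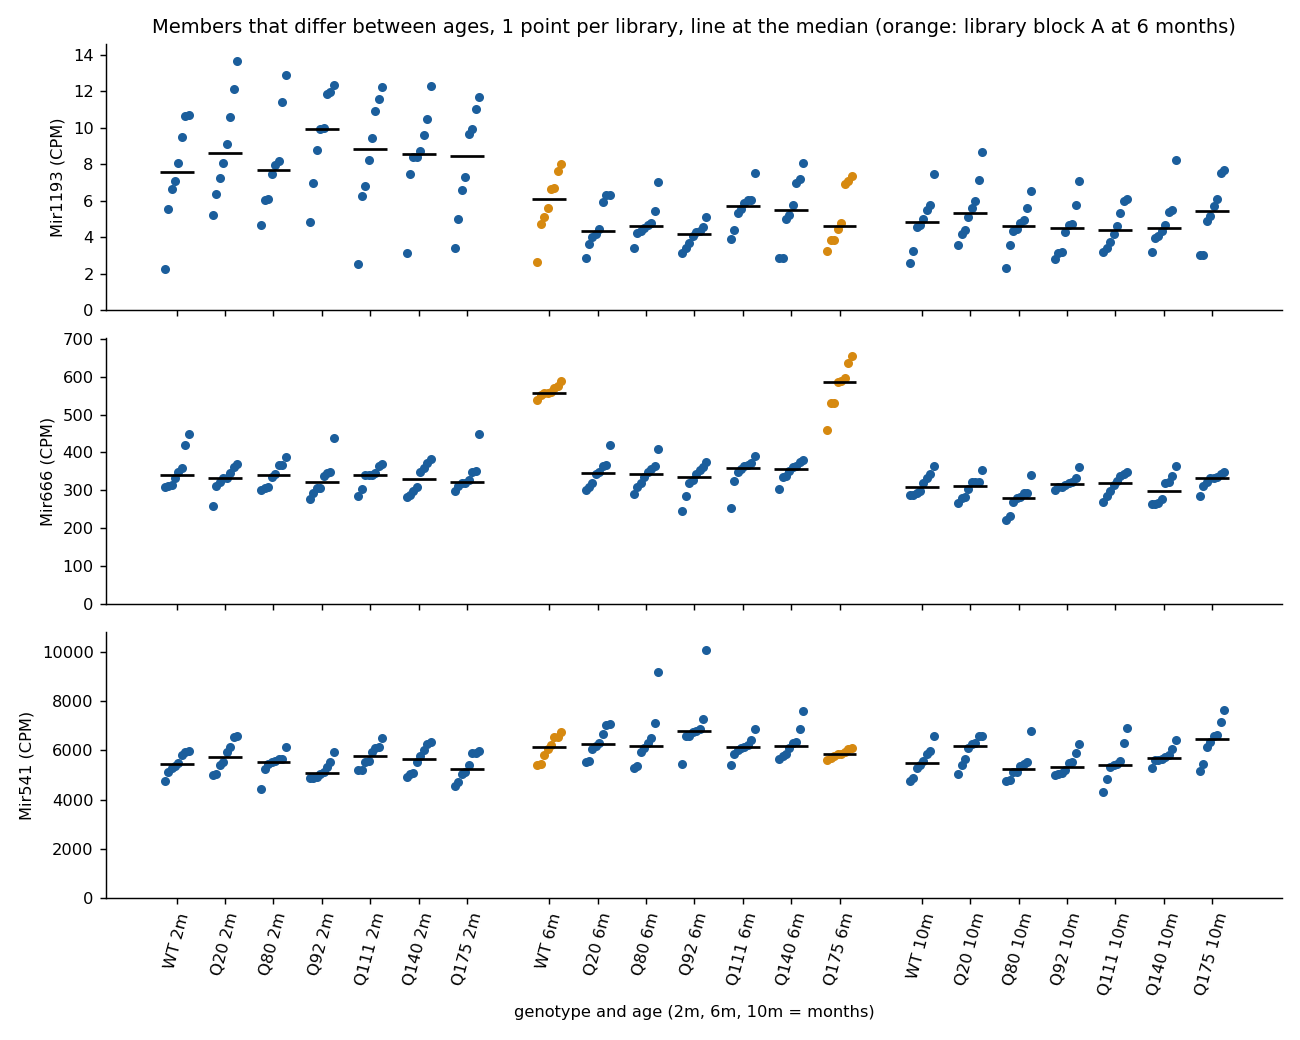
CPM of Mir1193, Mir666 and Mir541 in each library, by genotype within age, with a line at each group's median and the libraries of block A at 6 months in orange. Mir1193 is highest at 2 months (median 8.39 CPM), and Mir666 is high in block A alone (458 to 655 CPM).

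Mir541, 1 of the most abundant members, was not split in this way. It had medians of 5516, 6116 and 5579 CPM at 2m, 6m and 10m, and 5880 CPM in block A and 6287 CPM in block B at 6m. At 10m its median was 6461 CPM in Q175, 6175 CPM in Q20 and 5496 CPM in WT. Medians by batch code at 10m were 6275 CPM in L6, 5415 CPM in L7 and 5409 CPM in L8. Code L6 held 6 of the 8 Q20 libraries, 3 of Q175 and 2 of WT, and the part of batch in these genotype medians was not tested. The contrast of Q175 with controls was 0.17 (SE 0.062, adjusted p = 0.072).

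No member differed between males and females over all groups (0 of 30, 1.06% of all transcripts, edgeR). The only member at an unadjusted p under 0.05 was Mir496a, higher in males by 0.06 (SE 0.024, adjusted p = 0.19). Over all 470 transcripts, 50 reached that unadjusted level. The slope on CAG length did not pass the test of a difference between the sexes in any member at 2m (0 of 30, 0% of all transcripts, 2 members at an unadjusted p under 0.05), 6m (0 of 30, 0.213%, none) or 10m (0 of 30, 1.06%, 2 members). The counts at that unadjusted level over all 470 transcripts were 31 at 2m, 23 at 6m and 45 at 10m. At 10m the male slope was the lower one in 27 of 30 members, with a median difference of -0.048 beside -0.013 over all transcripts, and the 2 members at an unadjusted p under 0.05 were Mir381 and Mir134.

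Lastly, members were compared for how they varied between libraries of the same group, after removal of group, batch and sex means. Over the 231 pairs of the 22 members with a mean of at least 100 estimated counts, Pearson's r across all libraries had a median of 0.20, and 184 pairs were above 0. The median was 0.19 between these members and 11 upstream microRNAs of the domain, and -0.0017 between them and 225 other transcripts. All values of a library share its depth and scaling, and these correlations are given as a description. The highest were between Mir376c and Mir369 (r = 0.71) and between Mir487b and Mir369 (r = 0.71). Of the abundant members, Mir381 and Mir411 had the lowest median r with the others (-0.022 and -0.0042), and the lowest single value was that of Mir411 with Mir495 (r = -0.34).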

How the data were processed

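RNA had been extracted with the miRNeasy kit and sequenced on a HiSeq2000 as strand-specific single-end reads, and per the study's methods reads were aligned to mm10 with STAR and counted with HTSeq; the submitters' processing notes name CASAVA 1.8.2. The authors deposited estimated counts, which can be fractional, for 1626 transcripts; these were rounded. Deposited RPKM values were not used. Libraries were grouped by their labels, and batch was read from library names. Of 588 pairs of libraries within groups none were identical.

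Differential expression was tested with edgeR 4.0.16 in R 4.3.3 (TMM, quasi-likelihood F tests, 2-sided, Benjamini-Hochberg adjustment, filterByExpr with a minimum count of 10), with sex and batch as covariates and a CAG length of 7 for WT. The fit of age used group and sex without batch. The SE is the log2 change over the root of F. Statistics of 6m and 10m were combined as summed signed Z values over the root of 2. The fits were tested on simulated data. Alternatives were RLE factors, factors from outside the domain, no filter, DESeq2 1.42.0, no batch term, a replicate block, other controls, 1 sex, and each library left out.

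Members, gene lists and markers were chosen with earlier results of these data known. Named were all members called for CAG length or an allele, the 5 most and 3 least abundant, the first and last, a list with roles in neurons, and for age the 5 largest called changes in each direction; other members named in the text were chosen after their values were seen. Totals, from 2117539 to 9099227, limit the precision for rare members.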

Additional observations from a re-analysis of the deposited data

Results flagged for a closer look

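Libraries far from the rest of their group were searched for in the summed level and in the 5 members with a call. Dixon's gap over range was used in each of the 21 groups of 8, which made 126 tests. For a single quantity the test marks about 1 in 20 groups by chance. The tests were not independent, since the 5 members are part of the sum, and 9 values were marked. The summed level was 26480 CPM in Q80 2m M4 (next lowest 32920) and 47040 CPM in Q80 6m F4 (next highest 38610). The same libraries stood apart for Mir410, with 3972 CPM in Q80 2m M4 and 9854 CPM in Q80 6m F4. Mir410 was also high in Q80 10m M3 (7382 CPM) and Q92 2m M4 (7002 CPM). Mir323 was high in Q80 2m M4 (251.4 CPM). Mir3072 was low in Q175 10m M3 (4.831 CPM) and high in Q92 10m F4 (12.73 CPM).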

How the results depend on the processing

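Of 131 alternatives, 116 left the count of members called within 1.5 times, 8 gave fewer and 7 gave more. A count of 0 that stayed 0 was taken as unchanged, and many of the 116 were of this kind. They therefore say little on how firmly the counts above 0 held. The 131 include the comparison of the summed level given below. For the slope at 10m, the count of 2 became 5 with factors from outside the domain (11.3% of all transcripts called), 6 without WT (14.5%), 1 in females alone (2.55%), and 0 in males alone (1.91%) and without Q175 (0%). For the combined slope, the 4 became 0 without Q175 (0%) and 1 without WT (6.38%). The last alternative was chosen after seeing the data, and its 6m slope did not draw on Q175, since block A then held Q175 alone. For Q175 at 10m, the 1 became 3 with outside factors (12.6%), 2 by DESeq2 (16.4%) and 3 against Q20 alone (9.57%). For Q175 at 6m, the 0 became 7 of 30 with no batch term, where 29.4% of all transcripts were called in place of 3.4%. For Q175 combined, the 4 became 8 when the batch term was dropped (24.9%) and 1 when the low-count filter was (3.65%). For 6m against 2m, the 15 became 9 without block A (48.5%; chosen after seeing the data). There 2 changes lost their call and came out near 0 with the opposite sign: the log2 difference of Mir329 age 6m minus 2m was -0.0155 (adjusted p = 0.63), and that of Mir382 age 6m minus 2m was -0.00932 (adjusted p = 0.84). The cause of these changes was not tested, beyond the smaller samples that some alternatives have by construction.

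Leaving out each library in turn gave 1 to 6 members for the slope at 10m (1 without Q175 10m F1, 4 without Q175 10m F3, 5 without Q175 10m M4, 6 without WT 10m M1), 4 to 5 for the combined slope, 1 to 4 for Q175 at 10m (2 without Q175 10m M2, Q175 10m M3 or WT 10m F4, 3 without Q175 10m F3 or M4, 4 without WT 10m M1), 0 to 1 for Q175 at 6m (1 without WT 6m F2) and 3 to 5 for Q175 combined. The shares of all transcripts called were not worked out for these fits, so the counts have no background beside them.

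Replicate numbers were taken as names that recur between groups. The deviations of same-numbered libraries had a median correlation of -0.00083 over 492 pairs, against 0.00062 for other numbers. A median over all pairs cannot show pairing limited to a few groups, such as WT and Q20 littermates. With the replicate block, 3 members were called for the slope at 10m (17.2% of all transcripts) and 4 for the combined slope (13.4%). For Q175 it gave 1 at 10m (10.2%) and 2 combined (14.5%). Q20 alone as control at 6m could not be fitted. The summed level, Q175 minus controls at 10m, was 0.09 on the log2 scale and 0.10 as a share of the plain total. Depth limits the 8 members with a mean under 100 estimated counts.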
